A study of Mus musculus with 3 samples.

Results

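Cytosolic ribosomal protein genes encode the proteins of the ribosome that translates nuclear-encoded mRNAs. Members were the symbols that start with Rpl or Rps followed by a digit, with Rplp0, Rplp1, Rplp2 and Rpsa, leaving out the Rps6k kinases, Rps19bp1 and names with -ps, which mark pseudogenes. The rule found 88 of 24982 gene symbols, 54 for the large and 34 for the small subunit. It kept Rpl32l, Rpl37rt and Rps4l, which GENCODE M21 annotates as processed pseudogenes, and the counts and sums below include them. RNA was sequenced from LKS cells, the lineage-negative, Kit-positive, Sca1-positive bone marrow cells that hold haematopoietic stem and early progenitor cells. The design text, sample titles and cell type labels give LKS, whereas the sample descriptions name LLP cells, a term they do not explain. The groups were 2 libraries from wild-type recipient mice (WT replicates 1 and 2) and 1 library from recipients without CD73 (CD73-/-, the KO library). CD73, encoded by Nt5e, makes adenosine from AMP at the cell surface. The sources used here give no age, strain, pooling or transplantation details, do not describe how the deletion was made, and leave unstated the donor or host origin of the cells and the number of animals behind each library.

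The large subunit forms peptide bonds and releases the growing chain through its exit tunnel, and the small subunit reads the mRNA. Their proteins are made in matched amounts, and many of their mRNAs start with a tract of pyrimidines, the 5′ terminal oligopyrimidine (TOP) tract, through which growth signals set their translation. Blood formation is sensitive to the supply of these proteins, since loss of 1 copy of several of their genes causes Diamond-Blackfan anaemia, a failure of red cell production.

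Gene counts summed to 361638 (WT replicate 1), 324954 (WT replicate 2) and 264704 (KO), and all values by library below keep this order. Levels are given as CPM, a gene's count scaled to a library of 1000000 gene counts. A count of 0 allows up to 3 counts, which is 8.30, 9.23 and 11.3 CPM. Nt5e had 0 counts in every library and so could not check the label. Of 11 genes of the LKS gate and of stem or progenitor cells all were detected in both WT libraries, and Mecom alone had 0 counts in KO. Their summed level was lowest in KO, with 3056, 3416 and 2478 CPM. Of the 11, 9 had a negative log2 fold change, 7 were below both WT libraries, 0 passed the test and the median was -0.53. Gata2 was among the lower ones, with 337, 234 and 106 CPM. The gate genes Kit (517, 637 and 555 CPM) and Ly6a (166, 58.5 and 136 CPM) lay between the WT libraries in KO. Myb alone was above both, with 503, 674 and 710 CPM. The summed level of 6 B cell markers was 16.6, 61.5 and 7.56 CPM, with Cd79a at 0 in every library and Cd79b at 5, 17 and 0 counts. That of 5 T or NK cell markers was 191, 105 and 155 CPM, nearly all from Nkg7, with Cd3e at 0 in every library. That of 7 stromal or endothelial markers was 144, 191 and 128 CPM, mostly from Pecam1, with Col1a1 at 0 in every library and Cxcl12 at 0, 0 and 8 counts. The summed level of 8 neutrophil markers, all detected in some library, was 824, 1114 and 378 CPM. That of 9 erythroid markers, 4 of them detected, was 423, 129 and 559 CPM. Most came from Hbb-bt (418, 129 and 431 CPM), while Car1 had 0, 0 and 20 counts and Slc4a1 had 1, 0 and 11. That of 6 monocyte or macrophage markers, all detected in some library, was 108, 391 and 280 CPM. Its genes moved in different directions. Lyz2 was lowest in KO (88.5, 345 and 75.6 CPM), and Ccr2 (0, 6 and 39 counts) and Csf1r (0, 4 and 14 counts) were highest there. Adgre1, C1qa and C1qb were each highest in a WT library. Rn45s, the ribosomal RNA precursor, held 1.33%, 1.46% and 2.07% of counts. The part of these in the results below was not tested. In a bulk sample, fewer cells of a type and less RNA per cell cannot be told apart.

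Of the 88 members, 82 had a count in some library, 76 reached 50 counts and 66 reached 200. The filter on low counts let 78 into the test, 48 of the large and 30 of the small subunit. The 10 left out were Rpl26, Rpl30, Rpl34, Rps27 and the copies Rpl3l, Rpl10l, Rpl39l, Rps4l, Rps27l and Rps27rt. Rpl26, Rpl30, Rpl34 and Rps27 encode constitutive parts of the ribosome, yet Rpl26 and Rpl30 had 0 counts in every library, Rpl34 had 0, 0 and 1 and Rps27 had 1, 0 and 0. Ribosomal protein genes have many processed pseudogenes, so sequence shared with other genes was measured. The share of a gene's 50-base stretches that also occur in the GENCODE M21 transcripts of another gene had a median of 52.4% over the 86 members with a matched transcript and was above 50% in 45. It was 71.3% for Rpl26, 82.3% for Rpl30, 33.3% for Rpl34 and 54.2% for Rps27. A high share also occurred in well-detected members, such as Rpl35 with 95.1% and 464, 355 and 258 counts. How reads with several matches were counted is not given in the sources used here, so the levels of genes with close copies are uncertain.

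Ribosomal protein mRNAs were among the most abundant of every library. By FPKM, a level scaled to transcript length and library size that was deposited per transcript and summed here over a gene's transcripts, 61, 60 and 58 of the 100 genes of highest level were members. Over the 76 members that reached 50 counts the median level was 1359, 1161 and 1458 FPKM. Rpl41, which encodes the smallest ribosomal protein, had 4846, 4959 and 5177 FPKM, the highest level in both WT libraries. Rps15, a protein of the small subunit near the decoding site, had 2923, 4444 and 5781 FPKM and was highest in KO. At the low end stood Rps15a with 124, 101 and 87.3 FPKM, and its matched transcript is also the longest of any member, with 5179 bases. The order of members by FPKM was similar between libraries, with a Spearman rho across these 76 genes of 0.88 between the WT libraries and of 0.83 and 0.81 between KO and WT replicates 1 and 2. These genes share their libraries and transcript lengths, so the values describe the libraries only.

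**Figure D1:**
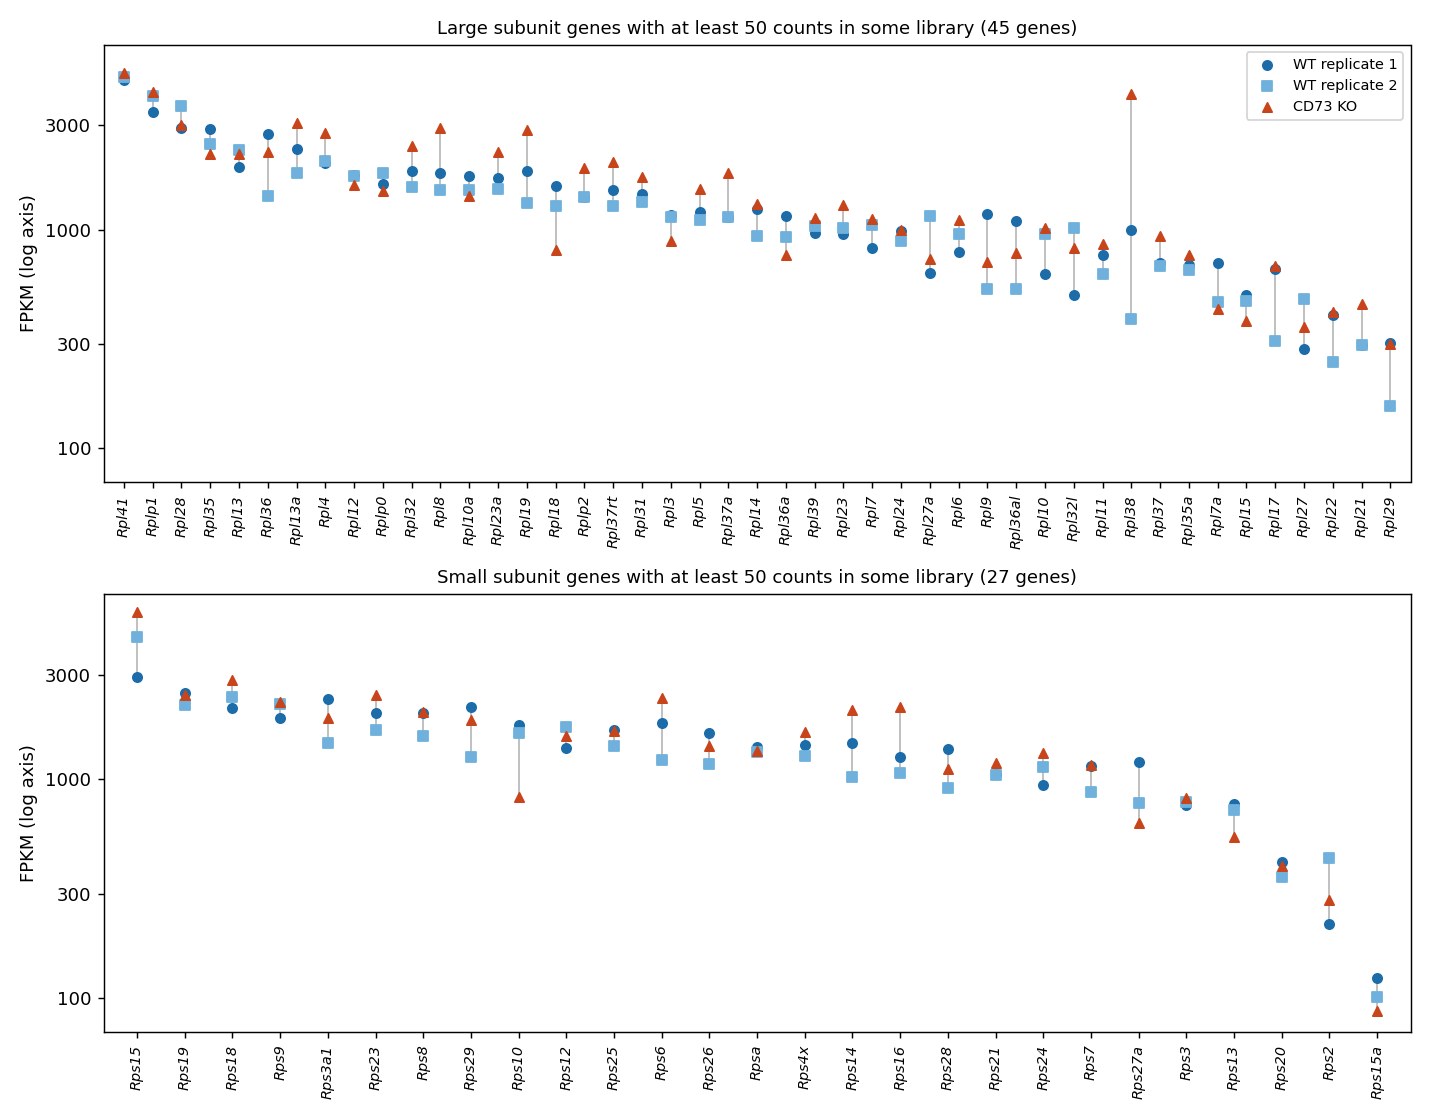
Level in FPKM (log axis) of each ribosomal protein gene that reached 50 counts in any library, in WT replicate 1 (circles), WT replicate 2 (squares) and KO (triangles), for 45 large subunit genes above and 27 small subunit genes below that are reported by name, ordered by WT mean. Grey lines span the 3 libraries, and the widest gap among large subunit genes is that of Rpl38, from 391 FPKM in WT replicate 2 to 4156 FPKM in KO.

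The summed ribosomal protein mRNA was highest in the KO library. Members took 8.21% (95% exact binomial interval 8.12 to 8.30%), 7.58% (7.49 to 7.67%) and 9.13% (9.02 to 9.24%) of counts, or 82118, 75795 and 91310 CPM. These and all later intervals cover only counting error, and PCR copies of a molecule can be counted as separate reads. The KO value exceeded the WT mean by 0.21 on the log2 scale, against an SD of 0.08 between the WT libraries (n = 2). It was 0.15 above WT replicate 1 alone and 0.27 above WT replicate 2 alone. With 1 KO library an exact permutation test cannot go below p = 0.333, so the difference has no test. Without Rpl38 the difference was 0.19.

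Both subunits followed the same order of libraries. Large subunit genes took 4.74%, 4.54% and 5.37% of counts, and small subunit genes took 3.47%, 3.04% and 3.76%. The ratio of large to small subunit counts was 1.37, 1.49 and 1.43, so KO lay between the WT libraries. The large subunit share of ribosomal protein counts was 57.8% (57.2 to 58.3%), 59.9% (59.2 to 60.5%) and 58.8% (58.2 to 59.4%). Rpl38 alone made up 0.66%, 0.28% and 2.42% of the large subunit counts, and without it the ratio was 1.36, 1.49 and 1.39.

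**Figure D2:**
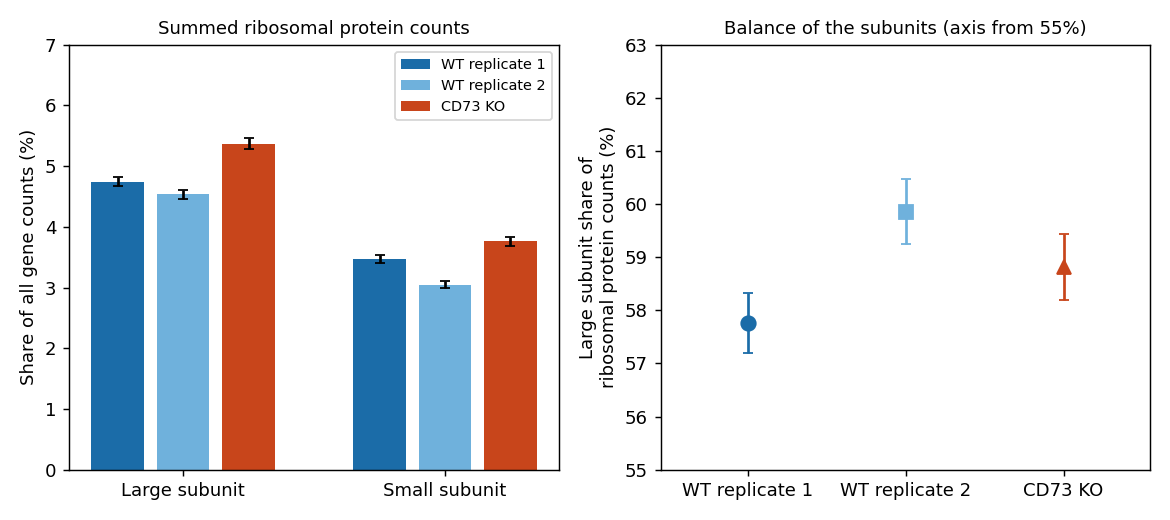
Left, share of all gene counts (%) held by large and small subunit genes in each library. Right, large subunit share of ribosomal protein counts (%, axis from 55%). Error bars are 95% exact binomial intervals and cover counting error only. KO is highest for both subunits on the left, and lies between the WT libraries on the right, at 58.8%.

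Gene by gene, most members were somewhat higher in KO, and 1 passed the test. Of 78 tested members 56 had a positive log2 fold change, and the median was 0.21, beside 43.1% of all 7984 tested genes with a positive value and a median of -0.31 over them. The large subunit had 33 of 48 positive with a median of 0.25, and the small subunit 23 of 30 with a median of 0.16. Only 271 of the tested genes reached 200 counts in some library. Over the 66 members that did so the median was 0.21, and over the 205 other genes at that level it was 0.002. With p-values from edgeR's quasi-likelihood test, adjusted over all tested genes by Benjamini and Hochberg's method and a threshold of 0.05, Rpl38 rose and 0 members fell, where 0.1% of all tested genes were called higher and 0% lower. Among genes with 200 counts 1 of 66 members and 2 of 205 others were called higher. A gene can reach that count through KO alone, as Rpl38 did, so these shares are not independent of the calls. At an unadjusted p under 0.05, 9 members were higher and 0 lower, beside 3.53% of all tested genes higher and 6.51% lower. All 9 were among the 66 members with 200 counts, where 20 of the 205 other genes were higher and 11 lower.

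The KO value lay above both WT libraries in 42 of the 78 tested members (31.1% of all tested genes), below both in 15 (38.2%) and between them in 21. Among all 2831 genes that reached 50 counts KO was above both in 29.1% and below both in 39.5%. At 200 counts or more it was above both in 57.6% of members and 29.8% of the 205 other genes, and below both in 19.7% and 38.5%. By subunit it was above both in 27 of 48 large and 15 of 30 small subunit genes. The WT libraries differed from each other as well. WT replicate 1 held the highest of the 3 values in 25 members and WT replicate 2 in 11, and WT replicate 2 held the lowest in 40. Against WT replicate 1 alone KO was higher in 65.4% of tested members and against WT replicate 2 alone in 69.2%.

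The spread between libraries was measured across genes. Among the 66 members with at least 200 counts the SD of the log2 CPM ratio across genes was 0.41 between the WT libraries, 0.53 for KO over WT replicate 1 and 0.57 for KO over WT replicate 2. Without Rpl38 these were 0.38, 0.47 and 0.43. For the 205 other genes that reached 200 counts they were 0.82, 0.91 and 0.87. A gene can reach that count through the library where it is high, which widens its ratios, and the sets were not matched further on level. Of the 66 members, 3 differed 2-fold or more between the WT libraries, 3 did so between KO and WT replicate 1, and 3 between KO and WT replicate 2. Of the 205 other genes 37, 41 and 40 did so in the same 3 comparisons.

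**Figure D3:**
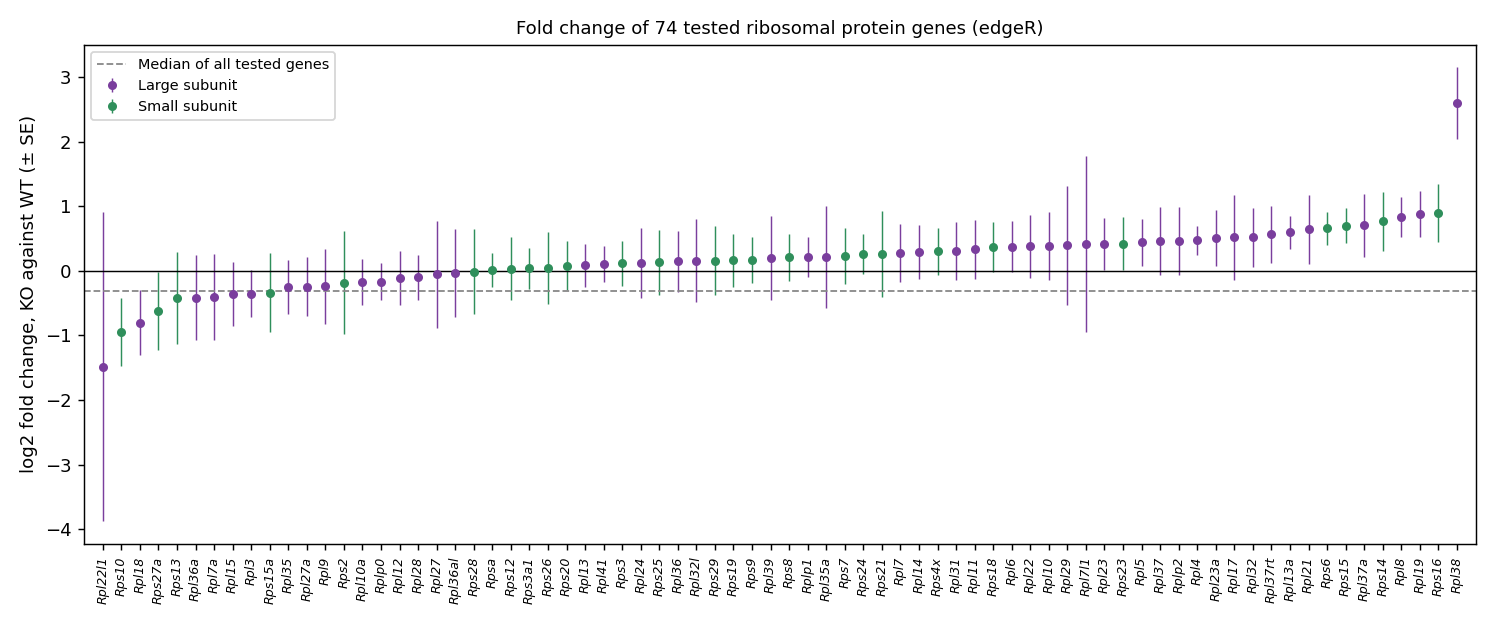
log2 fold change of KO against WT with its SE (edgeR) for 74 of the 78 tested ribosomal protein genes, those reported by name, in rising order, large subunit in purple and small subunit in green, with the median of all tested genes (-0.31) as a dashed line. Most points lie between -0.5 and 1 with bars that reach zero or come near it, and Rpl38 stands apart at 2.60.

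Rpl38 encodes a small protein on the surface of the large subunit that is known from mouse mutants to be needed for translation of Hox mRNAs in the embryo. The gene is protein-coding and lies on chromosome 11, 114668524 to 114672331, in mm10. It had 113, 41 and 344 counts, or 312, 126 and 1300 CPM, and 991, 391 and 4156 FPKM. KO stood above both WT libraries, 4.16-fold over WT replicate 1 (95% counting interval 3.35 to 5.19) and 10.3-fold over WT replicate 2 (7.44 to 14.6), while the WT libraries themselves differed 2.48-fold. This is a log2 fold change of 2.60 with an SE of 0.55 and an adjusted p of 0.0072. Against single WT libraries it was 2.08 (WT replicate 1) and 3.41 (WT replicate 2). In the test it kept its size but lost the call with DESeq2 (adjusted p 0.65), with a filter of 10 counts in each library or 50 in one of them (0.43) and with the mean count over transcripts (0.42). All 4 of its RefSeq transcripts carry nearly the same count, and 29.7% of its 50-base stretches occur in other genes.

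Among the large subunit genes, 4 more stood at least 1.5-fold above each WT library with at least 50 counts, without passing the test. Rpl8, a protein near the peptidyl transferase centre, had 1560, 1299 and 2486 CPM (log2 fold change 0.84, SE 0.31, adjusted p 0.26). Rpl19, which forms a bridge to the small subunit, had 1261, 899 and 1934 CPM (0.88, SE 0.36, adjusted p 0.32). Rpl37a had 666, 665 and 1054 CPM, and Rpl21 had 550, 548 and 835 CPM. In Rpl37a and Rpl21 the WT libraries were within 1% of each other, and KO was 1.58-fold and 1.52-fold above WT replicate 1. Rpl18 was lower, with 1073, 862 and 540 CPM (-0.80, SE 0.51, adjusted p 0.65). Exons of Sphk2 (20, 35 and 26 counts) overlap it on the opposite strand, and without known strand use the reads of both genes may be mixed. Such overlap is also annotated for members that were higher in KO, such as Rpl5 and Rpl32, and for others that were lower, such as Rpl12 and Rpl15. Of the remaining low values, Rpl36a had 564, 449 and 370 CPM (-0.41) and Rpl7a 606, 400 and 370 CPM (-0.40), with KO just under WT replicate 2 in the second.

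Among the small subunit genes, 3 stood at least 1.5-fold above each WT library, and 0 of them passed the test. Among them Rps16 had 774, 649 and 1296 CPM (log2 fold change 0.90, SE 0.45, adjusted p 0.48). Rps14, whose loss from a chromosome causes the red cell defect of the 5q- syndrome in people, had 866, 606 and 1220 CPM (0.77, SE 0.45, adjusted p 0.61). Rps10 was lower in KO, with 984, 856 and 465 CPM, 2.12-fold under WT replicate 1 and 1.84-fold under WT replicate 2 (-0.95, SE 0.53, adjusted p 0.57). Rps27a, made as a fusion with ubiquitin, had 760, 492 and 397 CPM (-0.62), and Rps13 had 445, 419 and 314 CPM (-0.42). The antisense gene Gm15420 overlaps exons of Rps10.

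Over both subunits 8 members were at least 1.5-fold above each WT library and 2 at least 1.5-fold below, of the 76 with at least 50 counts. Over all 2831 genes of that count 15.3% were above and 24.9% below. All of these 8 and 2 members were also among the 66 that reached 200 counts. Over the 271 genes with at least 200 counts, which include those 66 members, 10.3% were above and 9.96% below.

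**Figure D4:**
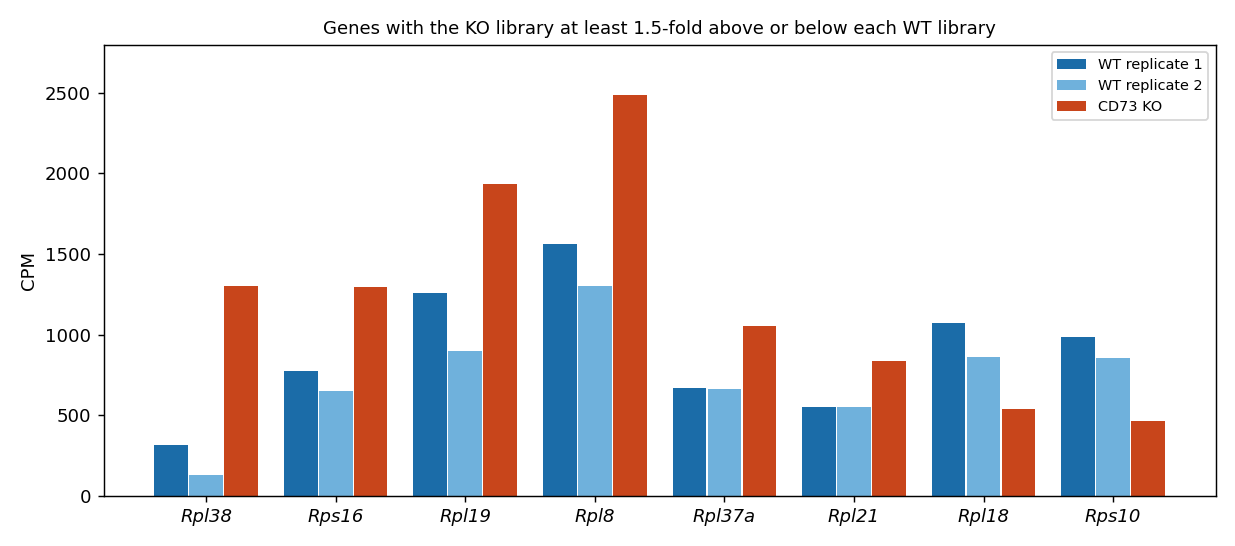
CPM in WT replicate 1, WT replicate 2 and KO (bars, left to right within each gene) of 8 of the 10 ribosomal protein genes whose KO value was at least 1.5-fold above or below each WT library, those reported by name. Of the 6 higher genes shown Rpl38 has the largest gap, from 312 and 126 CPM to 1300 CPM, and Rpl18 and Rps10 are the lower ones.

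The 10 most abundant members together had 21439, 21455 and 25901 CPM. In the large subunit, Rpl4 had 2854, 2893 and 3884 CPM (KO 1.34-fold above the nearer WT library), and Rpl13a, which also takes part in silencing inflammatory mRNAs, had 2381, 1846 and 3105 CPM. In the small subunit, Rpsa, also known as a laminin receptor, had 2585, 2459 and 2474 CPM, a difference smaller than that between the WT libraries. Rps6, the substrate of the S6 kinases in growth signalling, had 2511, 1693 and 3230 CPM, and Rps15 had 1681, 2090 and 2977 CPM. In both, KO was above both WT libraries without passing the test (adjusted p 0.29 and 0.28). Rps3a1 and Rps24 had 2171, 1376 and 1772 CPM and 1742, 1779 and 2059 CPM.

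In the acidic stalk of the large subunit, which recruits the elongation factors, 2 genes were lowest and 2 highest in KO, by small differences. Rplp0 had 2193, 2456 and 2014 CPM and Rpl12, which anchors the stalk with it, 1131, 1111 and 1009 CPM, both lowest in KO. Rplp1 had 1601, 1899 and 1968 CPM and Rplp2 611, 609 and 820 CPM, both highest in KO, and 0 of the 4 passed. Rpl5, Rpl11 and Rpl23, which in free form bind Mdm2 and so stabilise p53, were each highest in KO. Rpl5 had 1258, 1160 and 1598 CPM, Rpl11 had 918, 754 and 1024 CPM and Rpl23 had 1007, 1077 and 1356 CPM. None passed, and their log2 fold changes were 0.44, 0.33 and 0.42.

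Of 19 genes mutated in Diamond-Blackfan anaemia 17 were tested, 10 with a positive log2 fold change and 7 with a negative one, with a median of 0.15 and 0 past the test. The list holds Rps10 and Rpl18, which are among the members with the lowest fold changes. Its most abundant members were Rps24, Rpl5, Rps19 (1233, 939 and 1186 CPM) and Rpl35 (1283, 1092 and 975 CPM). Of 9 proteins around the mouth of the exit tunnel, a list that includes Rpl38, 8 were tested and 7 were positive, with a median of 0.44. KO was above both WT libraries in these 7, Rpl38 alone passed, and Rpl35 was below both. Of 8 proteins near the mRNA channel 6 were positive and 0 passed, with a median of 0.14.

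Copies of ribosomal protein genes that replace or accompany the main gene had low or 0 counts, apart from Rpl36al. Rpl36al had 204, 89 and 106 counts, Rpl22l1 had 24, 7 and 4, Rpl7l1 had 16, 37 and 27, Rps27l had 3, 10 and 7 and Rpl3l, the heart and muscle form, had 11, 0 and 0. Rpl10l, Rpl39l, Rps4l and Rps27rt had 0 in every library. Of the 50-base stretches of Rps27rt 91.1% occur in other genes, Rps27 among them, so its 0 is uncertain. None of the 3 tested, Rpl36al, Rpl22l1 and Rpl7l1, passed. The retrocopies Rpl32l and Rpl37rt had 107, 195 and 128 and 332, 254 and 324 counts, at depths where reads of Rpl32 (308, 233 and 290) and Rpl37 (219, 190 and 211) may be split between copies, so these values are uncertain.

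Genes made into ribosomes or controlled with them, but outside the naming rule, were measured in the same fit. Fau, which encodes a ubiquitin-like fusion of a ribosomal protein, had 802, 572 and 771 CPM, and Rack1, the scaffold on the small subunit, had 1560, 1708 and 2002 CPM. Of 16 other translation and growth genes known for TOP mRNAs 9 were positive and 0 passed, with a median of 0.11. Eef1a1, the main elongation factor, had 5967, 9032 and 6256 CPM, and Eef2 had 2995, 2847 and 2406 CPM. The summed level of these 16 genes was 17534, 20132 and 17601 CPM, so KO was close to WT replicate 1 and did not follow the order of the ribosomal protein sum.

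Start sites were compared because the TOP tract is the sequence feature best known to be shared by these mRNAs. RefSeq start sites (GRCm38.p6) were at hand for 67 members. At the first listed start, a C followed by at least 4 further bases that are each C or T, read on the gene's own strand, was found in 14 of 67 (20.9%), beside 2.49% of 27025 genes. The letters CTTTC within 20 bases before to 30 after the start, on the same strand, were found in 31.3% of members and 6.46% of all genes. The windows below run from 10 bases before the start to 20 from it, with the pyrimidine run from the start in capitals. They show the only member that passed, the lowest small subunit gene by fold, an abundant member, the longest run among tracts that start with C (Rpl15), and 2 genes among the higher ones without a tract.
Rpl38: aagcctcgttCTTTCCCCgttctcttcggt
Rps10: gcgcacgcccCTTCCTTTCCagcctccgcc
Rps6: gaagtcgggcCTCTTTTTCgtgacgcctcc
Rpl15: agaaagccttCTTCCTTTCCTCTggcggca
Rps16: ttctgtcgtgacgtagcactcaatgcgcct
Rpl19: aaacgccctcactgcgcatgtgcgccgcgg
They lie at chr11:114668570-114668599 (plus strand), chr17:27635225-27635254 (minus), chr4:86857348-86857377 (minus), chr14:18270967-18270996 (minus), chr7:28350679-28350708 (plus) and chr11:98026700-98026729 (plus). A missing tract says only that these letters are not at the listed start.

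Members with and without the tract overlapped in fold change. Of the 12 tested members with it 7 had a positive log2 fold change, from -0.95 in Rps10 to 2.60 in Rpl38, with a median of 0.21. Of the 47 tested members with a listed start and no tract 33 were positive, from -1.48 to 0.90, with a median of 0.17. Rpl15, with a run of 13 pyrimidines, had 915, 917 and 695 CPM. The members lie on 19 chromosomes, with 14 on chromosome 7. Across the 74 members that reached 50 counts and had a matched transcript, the log2 fold change had a Spearman rho of -0.19 with the share of stretches found in other genes, of -0.12 with transcript length and of -0.01 with WT level. These are descriptions of 1 comparison over genes that share libraries.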

How the data were processed

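Per the labels' protocols, column-purified total RNA went into libraries from NEB kits. The deposited files give, per RefSeq transcript, a whole-number count and an FPKM value, as the authors made them. For the counting tool, FPKM tool, strand use and multiply mapped reads, the method is not given in the sources used here. STAR and mm10 are named, without versions, per the submitters' processing notes. A read can appear in several transcript rows, so each gene took its highest row count (42574 rows, 24982 symbols, 0 rows without a symbol). Values were per library as the sample titles group them. The test was edgeR's (version 4.0.16, R 4.3.3, with filterByExpr, TMM, quasi-likelihood F-test, Benjamini-Hochberg adjustment over 7984 genes, threshold 0.05). A run on simulated counts checked only the direction of planted changes. Its spread was set by hand and not fitted to these data, so it says nothing about the calls made here. With 1 residual degree of freedom, KO variation is taken as that of WT, and since separate animals are not stated the p-values may reflect technical spread alone. SE was the size of the log2 fold change over the root of the F statistic. CPM uses library totals without TMM factors. Named genes were members past the test, the 6 of highest mean CPM and the 3 of highest and lowest fold per subunit, those at least 1.5-fold outside both WT libraries with at least 50 counts, and the stalk, Mdm2-binding and copy lists. Others were named after their values were seen: Rpl15, Rpl26, Rpl29, Rpl30, Rpl32, Rpl34, Rpl37, Rps15a, Rps27 and the retrocopies. Up to 4 genes of other lists were named by abundance. Some genes that these rules name are not reported here, though counts and sums include them. The members and lists were chosen with earlier results of these data known. Alternatives were DESeq2 1.42.0 (test and size factors), other filters, the mean count over rows, FPKM, and leaving out a WT library. GENCODE M21 and RefSeq gave coordinates and sequences.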

Additional observations from a re-analysis of the deposited data

How the results depend on the processing

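The DESeq2 Wald test called 0 genes and 0 members (621 and 4 at an unadjusted p under 0.05). A filter of 10 counts in each library or 50 in one of them gave 0 and 0 (340 and 3). The mean count over transcript rows gave 1 and 0 (709 and 9), and no filter on low counts gave 4 and 1. With DESeq2 size factors 6 genes were called and with library totals only 7, Rpl38 among them in both. The cause of these differences was not tested. Without a WT library no test was made for lack of residual degrees of freedom. The members' median log2 fold change then ranged from 0.19 to 0.29, and the share of members with KO above the WT library left ranged from 65.4% to 69.2%. The summed level stayed higher in KO under every alternative run, by 0.15 to 0.27 on the log2 scale, and the large to small subunit ratio moved by less than the SD between the WT libraries under each, on either side of 0. FPKM summed over transcripts was chosen as an alternative after seeing the data. No paired analysis was possible because the KO library carries no replicate number. For the 12 genes whose fold changes were recomputed, 92 values kept their side of the threshold or moved by less than the spread, 3 lost the call (Rpl38, above), and 1 moved, Rpl38 without WT replicate 1 (3.41). Depth limits the rarest tested members, Rpl29, Rpl7l1 and Rpl22l1, whose SE was 0.92, 1.37 and 2.40.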
